A study of Mus musculus with 10 samples.

Results

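The genes examined were 10 imprinted genes with roles in growth and nutrient control, Igf2, H19, Meg3, Rian, Peg3, Plagl1, Ndn, Grb10, Mest and Impact, chosen by symbol from the 14300 genes of the deposited count table. All 10 were in the table, and all 10 passed the filter on low counts. Embryos carried Grem1creERT, a tamoxifen-activated Cre under Grem1 regulatory sequences, and Rosa26LSLTdtomato, a red fluorescent reporter that Cre switches on, on the c57bl/6j strain. Pregnant dams received tamoxifen by mouth in mid-gestation, brain cells were dissociated 24 hours later, and live TdTomato+ and TdTomato- cells were sorted. The study's methods give the tissue as dorsal telencephalon with the meninges taken off. The study used 5 mice, and the labels number the 10 libraries 2 to 6, with 1 library of each population to a number. Libraries of the same number are called those of a mouse here and were paired in the tests, although the sources do not say that they came from the same embryo. The populations shared genotype, strain, tamoxifen and time and differed in the reporter. A TdTomato+ cell is one in which the Grem1 sequences drove Cre after tamoxifen, or a descendant of such a cell, and the TdTomato- population is every other live cell of the tissue, cells that use those sequences but escaped Cre included.

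Imprinted genes are transcribed from the copy inherited from a single parent, under the control of DNA methylation marks that are set in the germ line at imprinting control regions. Many of them act on fetal growth, with paternally expressed genes such as Igf2, Mest and Peg3 usually promoting it and maternally expressed genes such as H19 and Cdkn1c usually restraining it. Several stay active in the developing brain, where they are known for roles in progenitor growth, neuronal survival and feeding circuits. Parental origin is used here as background knowledge: the mice were of 1 strain, no allele was read, and the counts are the sum of both copies. In these bulk libraries, fewer cells of a type and less RNA per cell cannot be told apart.

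Libraries held 23429034 to 27286180 counted reads, of which the 10 genes took between 0.163% and 0.227% in the TdTomato- libraries and between 0.177% and 0.222% in the TdTomato+ libraries. Grem1, a secreted BMP antagonist and the gene behind the sort, measured 6.11 ± 0.731 CPM (the share of a library's reads, scaled by trimmed mean of M-values, TMM; s.d., n = 5) in the TdTomato- population and 63.3 ± 3.10 CPM in TdTomato+ cells. The 6 neuron markers summed to 5193 to 6155 CPM where the reporter was off and to 11721 to 12999 CPM where it was on, and all 6 were higher in TdTomato+ cells. The 6 progenitor markers summed to 1620.3 to 1908 and 102 to 146 CPM, and the 5 GABAergic markers to 1076 to 1387 and 32.0 to 49.1 CPM, with every gene of both lists lower in TdTomato+ cells. Non-neural lists were held in part by the table. The 4 mural cell genes summed to 11.5 to 18.8 CPM without the reporter and to 1.02 to 3.04 CPM with it, the 2 endothelial genes to 2.05 to 3.62 and 0.678 to 1.91 CPM, the 2 fibroblast genes to 1.88 to 5.29 and 0.564 to 1.09 CPM, and the single choroid plexus gene to 0.674 to 3.03 and 0 to 1.41 CPM. The 3 microglial genes summed to 9.43 to 44.0 and 0.589 to 1.22 CPM, with P2ry12 at or under 3 counts in every TdTomato+ library. The 4 erythroid genes summed to 58.3 to 209 and 0.997 to 22.8 CPM.

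**Figure D1:**
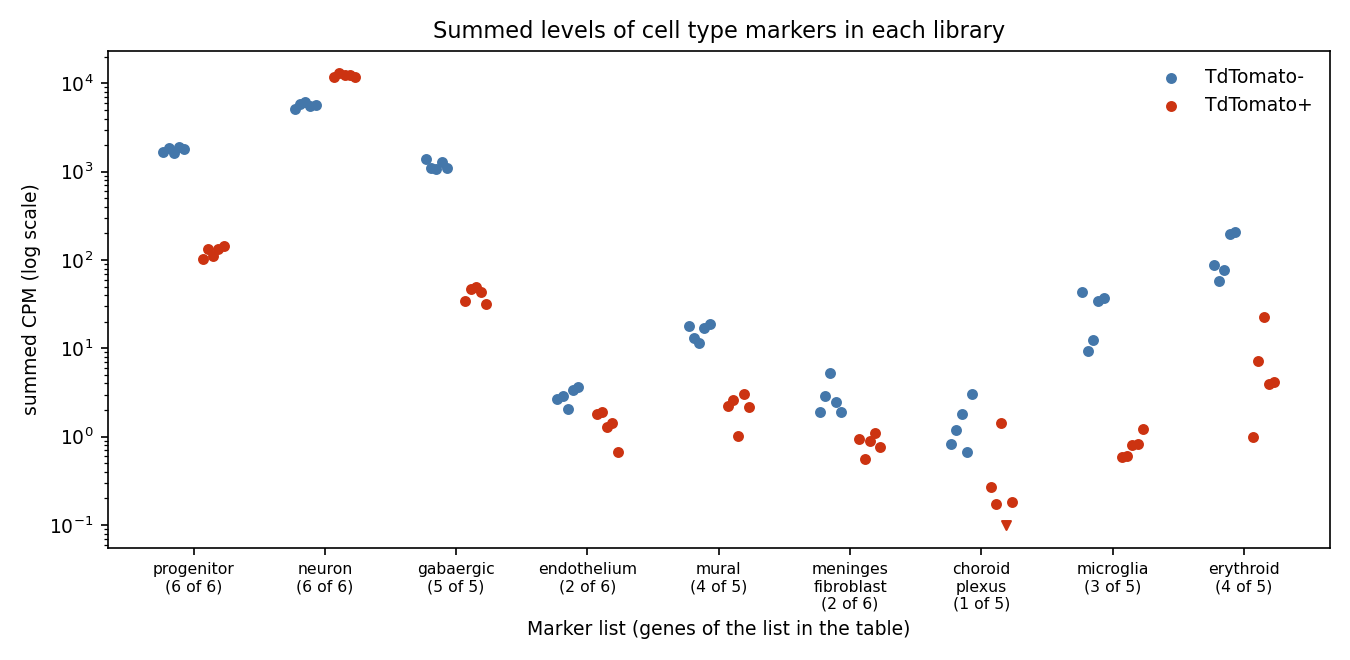
Summed CPM of 9 marker lists (log axis) in each library, with TdTomato- libraries in blue and TdTomato+ libraries in red; the number of genes of each list held by the table is given under its name, and a triangle at the foot marks a sum of 0. Every progenitor, GABAergic, mural, endothelial, fibroblast, microglial and erythroid sum was higher in TdTomato- than in TdTomato+ libraries. Every neuron sum was lower, and the choroid plexus sums overlapped.

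Promoter sequences are shown for the genes on which the results turn, because imprints are kept through CpG-rich sequence that proteins such as ZFP57 recognise. ZFP57 is a zinc finger protein that binds TGCCGC when its CpG is methylated, and PLAGL1 is itself a zinc finger factor whose sites have the form GGGGCCCC. RefSeq windows (GRCm38.p6) running from 250 bases before to 50 bases after a start site were found for 8 of the 10 genes, 15 windows in all, and H19 and Impact had no entry. TGCCGC or its complement GCGGCA was in 6 of the 15 windows, in 5 genes (Mest, Igf2, Plagl1, Grb10 and Meg3), beside 11.6% of all 32851 promoters of the same length. Mest windows 2 and 3 start 3 bases apart and share their matches. The 15 windows surround start sites, and imprinting control regions were not looked up. TGCCGC holds a CpG, and the windows were richer in CpG than promoters at large (medians below), so no enrichment is read. GGGGCCCC was in the Peg3 window alone, beside 1.08% of all promoters. CCCTC or GAGGG, the core of the CTCF motif, was in 13 of the 15 windows, beside 66.0% of all promoters. The median number of CpG dinucleotides was 13 per window against 7 over all promoters, and it ranged from 0 at Rian to 45 at the upstream start of Grb10, more than in 98.1% of promoters. Below, capitals mark TGCCGC or its complement, except in Peg3, where they mark GGGGCCCC.
Grb10 upstream start (chr11:12037371-12037670, minus strand): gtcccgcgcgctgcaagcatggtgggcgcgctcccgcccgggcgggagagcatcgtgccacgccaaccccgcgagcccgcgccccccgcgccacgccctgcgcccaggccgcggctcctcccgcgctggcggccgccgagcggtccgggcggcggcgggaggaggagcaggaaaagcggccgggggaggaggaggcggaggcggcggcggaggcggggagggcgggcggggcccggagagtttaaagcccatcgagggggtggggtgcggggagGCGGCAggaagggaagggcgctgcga
Grb10 second start, no match (chr11:12027922-12028221, minus strand): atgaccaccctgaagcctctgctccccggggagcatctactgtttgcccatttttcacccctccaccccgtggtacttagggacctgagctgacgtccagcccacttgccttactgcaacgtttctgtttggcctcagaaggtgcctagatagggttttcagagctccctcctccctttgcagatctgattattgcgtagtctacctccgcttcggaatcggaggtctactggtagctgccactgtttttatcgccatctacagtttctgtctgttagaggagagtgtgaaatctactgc
Mest window 2 (chr6:30737800-30738099, plus strand): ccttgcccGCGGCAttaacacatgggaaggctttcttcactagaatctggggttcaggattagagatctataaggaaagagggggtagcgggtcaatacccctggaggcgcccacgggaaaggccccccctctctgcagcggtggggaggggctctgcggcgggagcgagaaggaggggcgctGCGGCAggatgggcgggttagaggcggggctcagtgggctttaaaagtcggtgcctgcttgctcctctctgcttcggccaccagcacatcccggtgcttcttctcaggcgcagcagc
Plagl1 (chr10:13090582-13090881, plus strand): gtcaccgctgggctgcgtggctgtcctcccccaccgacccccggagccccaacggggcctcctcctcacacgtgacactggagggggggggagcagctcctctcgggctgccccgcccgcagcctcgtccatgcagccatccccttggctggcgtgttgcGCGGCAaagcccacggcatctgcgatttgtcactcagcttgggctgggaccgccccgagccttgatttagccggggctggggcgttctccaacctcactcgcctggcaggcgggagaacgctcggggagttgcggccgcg
Meg3 window 1 (chr12:109540746-109541045, plus strand): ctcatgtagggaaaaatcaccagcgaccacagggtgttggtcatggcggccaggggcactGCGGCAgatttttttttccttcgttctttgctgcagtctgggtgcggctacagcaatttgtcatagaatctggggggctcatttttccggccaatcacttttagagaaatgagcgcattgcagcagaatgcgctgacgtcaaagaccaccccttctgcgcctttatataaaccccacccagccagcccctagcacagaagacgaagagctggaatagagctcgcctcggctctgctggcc
Peg3 (chr7:6730370-6730669, minus strand): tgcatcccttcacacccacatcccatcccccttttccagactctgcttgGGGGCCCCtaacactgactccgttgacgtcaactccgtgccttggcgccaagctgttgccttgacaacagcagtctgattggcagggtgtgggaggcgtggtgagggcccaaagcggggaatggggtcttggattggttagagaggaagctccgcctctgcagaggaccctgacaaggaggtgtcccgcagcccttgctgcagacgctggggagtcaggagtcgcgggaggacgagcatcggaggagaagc

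Between the populations the 10 genes went both ways and by very different amounts. Grb10, H19, Mest, Igf2 and Peg3 were lower in TdTomato+ cells, Ndn, Meg3, Rian and Impact were higher, and Plagl1 did not pass the test (edgeR quasi-likelihood F-test with the mouse as a block, Benjamini-Hochberg adjusted p of 0.05 or less). Of the 10 genes, 4 were thus called higher and 5 lower, beside a background of 37.9% of all 14300 genes called higher and 39.4% called lower, 77.3% in all. Grb10, H19 and Mest also had an absolute log2 fold change of 2 or more, the study's second threshold, which 9.74% of all genes passed downward and 3.2% upward. TdTomato+ and TdTomato- libraries did not overlap for 7 of the 10 genes, 3 higher and 4 lower, beside 61.6% of all genes. The median log2 fold change of the 10 was -0.26, with a range from -4.91 to 1.37, and that of all genes was -0.01. The counts of called genes and of genes without overlap lie near those of all genes, while past both thresholds 3 of the 10 were lower and 0 higher, too few genes to read a share from.

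**Figure D2:**
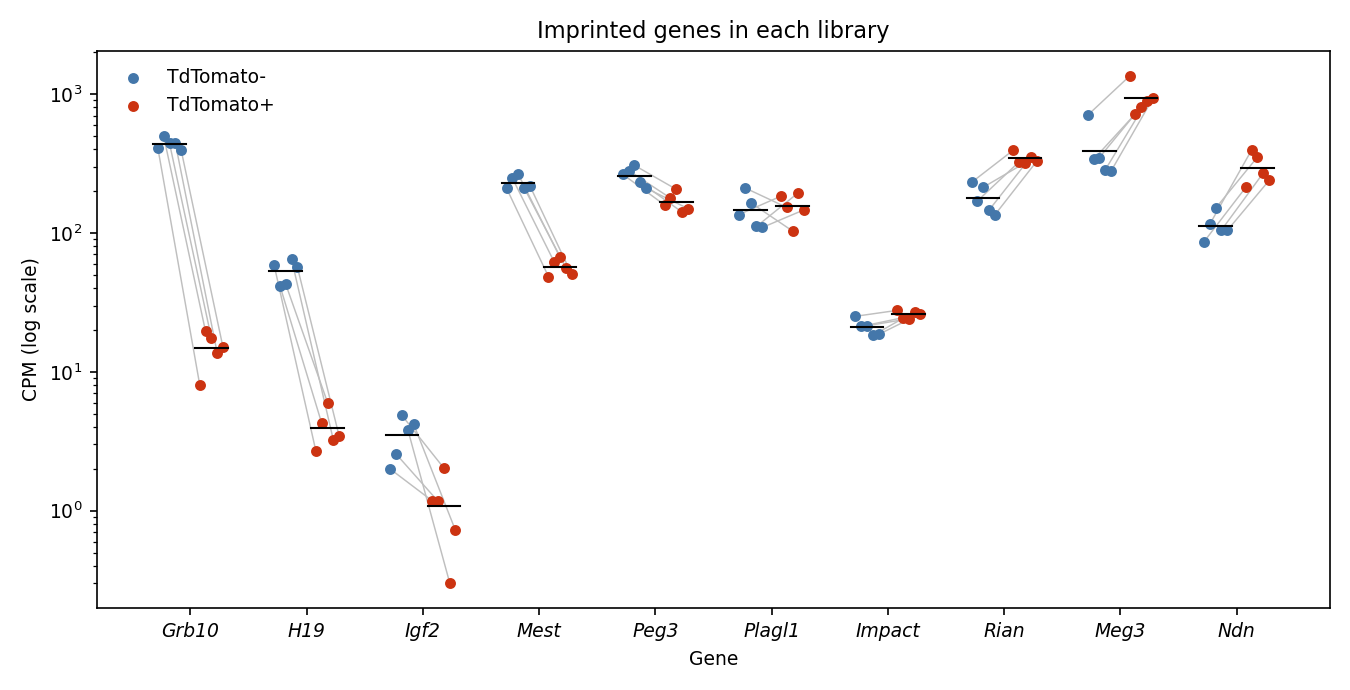
CPM of the 10 genes (log axis) in each of the 10 libraries, with TdTomato- in blue, TdTomato+ in red, a grey line joining the libraries of each mouse and a black bar at the mean of 5. The populations are far apart for Grb10, H19 and Mest, they overlap for Igf2, Plagl1 and Impact, and the Meg3 point of 704 CPM in TdTomato- mouse 2 lies above the other TdTomato- libraries.

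Grb10 (growth factor receptor-bound protein 10, ENSMUSG00000020176, chr11:11930508-12038683, minus strand) encodes an adaptor that binds the insulin and IGF1 receptors and restrains growth. It is expressed from the maternal copy in most tissues and from the paternal copy in neurons, through different promoters, and it is therefore kept apart from the parental classes. In mice 2 to 6 it measured 407, 497, 442, 444 and 396 CPM in the TdTomato- libraries and 8.07, 19.6, 17.6, 13.7 and 15.1 CPM in the TdTomato+ libraries. The lowest TdTomato- library was far above the highest TdTomato+ library, and among TdTomato+ libraries mouse 2 was lowest. The means were 437 ± 39.8 and 14.8 ± 4.38 CPM (s.d., n = 5), 30.2-fold lower with the reporter on, and the log2 fold change came to -4.91 (s.e. 0.14, edgeR adjusted p = 5.66e-09). By size of change Grb10 ranked 181 among all 14300 genes and was foremost of the 10. The 6 progenitor markers fell with it, from sums of 1620.3 to 1908 CPM to sums of 102 to 146 CPM, and their part in the result was not tested. The gene-level counts do not separate transcripts from the promoters shown above.

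H19 and Igf2 lie next to each other on chromosome 7 and are a classic reciprocally imprinted pair. H19 (ENSMUSG00000000031, chr7:142575529-142578143, minus strand) is a maternally expressed noncoding RNA that restrains growth and hosts miR-675 in an exon. Igf2 (ENSMUSG00000048583, chr7:142650766-142666816, minus strand) encodes a growth factor that acts through the IGF1 and insulin receptors and is paternally expressed in most tissues. H19 measured 58.6, 41.7, 42.7, 64.7 and 56.9 CPM in the TdTomato- libraries and 2.67, 4.25, 6.00, 3.22 and 3.43 CPM in the TdTomato+ libraries of mice 2 to 6. No library of the populations overlapped, and the means of 52.9 ± 10.2 and 3.92 ± 1.30 CPM (s.d., n = 5) gave a log2 fold change of -3.74 (s.e. 0.22, edgeR adjusted p = 3.76e-07), a 13.4-fold difference. Igf2 was the lowest of the 10 genes, at 1.99, 2.56, 4.85, 3.84 and 4.22 CPM in the TdTomato- libraries and 1.18, 1.17, 2.03, 0.304 and 0.723 CPM in the TdTomato+ libraries. TdTomato+ mouse 4 lay just above TdTomato- mouse 2, so the populations overlapped, although within each of the 5 mice Igf2 was lower with the reporter on. The log2 fold change of Igf2 was -1.72 (s.e. 0.35, edgeR adjusted p = 0.00161), on 51 to 121 reads per TdTomato- library and 7 to 46 reads per TdTomato+ library. In the GENCODE M21 annotation 62.8% of the exonic length of Igf2 is shared with Gm49394, a transcript of the same strand, so reads from the shared exons can have gone uncounted and its level is uncertain. In the embryonic brain Igf2 is known from the choroid plexus, meninges and vessels, whose markers had the low sums given above. Of those markers in the table, 1 of 1 choroid plexus, 1 of 2 fibroblast, 1 of 2 endothelial and 3 of 4 mural genes were called lower in TdTomato+ cells, beside 39.4% of all genes, and their part in the H19 and Igf2 results was not tested.

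The ratio of H19 to Igf2 counts within a library does not depend on how libraries are scaled. As a log2 ratio, with 2 counts added to each gene, it was 3.94 ± 0.615 in TdTomato- and 1.93 ± 0.740 in TdTomato+ cells (s.d., n = 5). The difference was negative in 5 of 5 mice, from -0.97 (mouse 5) to -3.70 (mouse 2) with a mean of -2.02, which gave p = 0.0625 in an exact two-sided sign-flip test over the 5 pairs, the smallest value this test can give with 5 pairs, and 0.0625 after Benjamini-Hochberg adjustment over 2 ratios. The sign-flip test could therefore not pass 0.05, and the shared Igf2 exons limit the level of the ratio. With no count added, the mean difference was -1.92 and that of mouse 5, whose TdTomato+ library held 7 Igf2 reads, was -0.67.

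**Figure D3:**
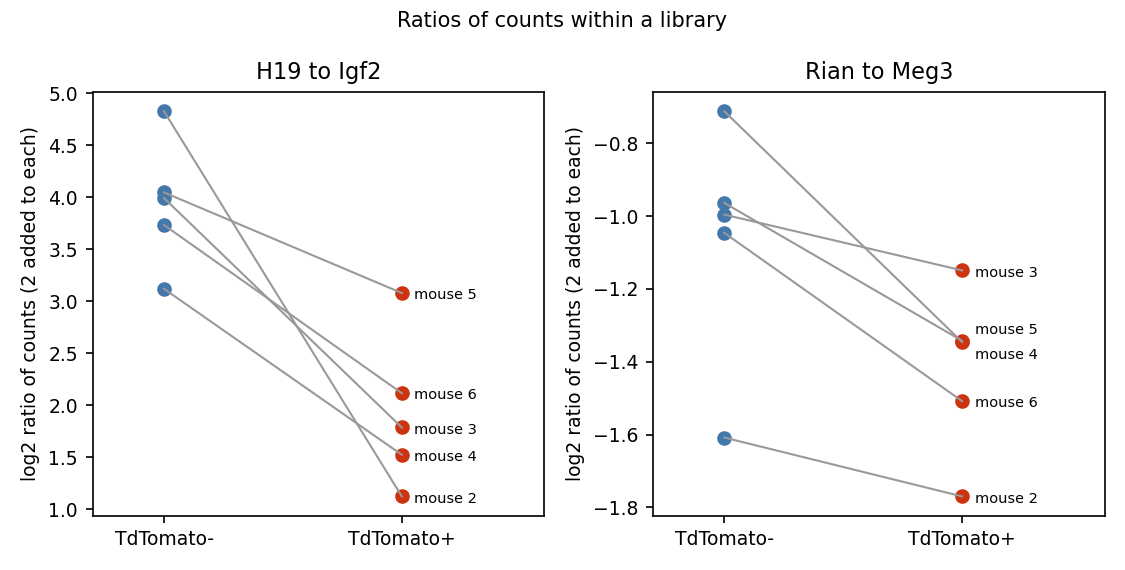
Log2 ratio of H19 to Igf2 counts (left) and of Rian to Meg3 counts (right) in TdTomato- and TdTomato+ libraries, with 2 counts added to each gene and a line for each of the 5 mice. All 10 lines slope downward, from a mean of 3.94 to 1.93 for H19 to Igf2 and from -1.06 to -1.42 for Rian to Meg3.

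Among the paternally expressed genes of growth, Mest, Peg3 and Plagl1 differed from each other. Mest (mesoderm-specific transcript, ENSMUSG00000051855, chr6:30723547-30748465, plus strand) encodes a hydrolase-like membrane protein that promotes growth, and carries miR-335 in an intron. It measured 209.6, 248, 265, 212 and 219 CPM in the TdTomato- libraries and 48.6, 61.7, 66.7, 56.2 and 50.3 CPM in the TdTomato+ libraries, with no overlap and with nearly the same difference in every mouse, from -1.91 to -2.12 on the log2 scale. Its log2 fold change of -2.03 (s.e. 0.05, edgeR adjusted p = 2.23e-09) lay just past the second threshold, and was -1.997 without mouse 6, where it no longer reached an absolute value of 2. Copg2, which lies on the other strand over 23.1% of the exonic length of Mest, measured 72.4 ± 4.05 and 76.4 ± 5.36 CPM (log2 fold change 0.08, adjusted p = 0.187), and strand use in the counting is not given in the sources used here.

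Peg3 (ENSMUSG00000002265, chr7:6703892-6730431, minus strand) encodes a zinc finger protein that links growth, apoptosis and maternal behaviour. Its levels were 264, 281, 307, 232 and 210.0 CPM in the TdTomato- libraries and 159, 178, 206, 141 and 149.8 CPM in the TdTomato+ libraries. Each TdTomato+ library was below every TdTomato- library, and mouse 4 was highest in both populations. The difference was modest, with means of 259 ± 38.4 and 167 ± 25.9 CPM and a log2 fold change of -0.64 (s.e. 0.05, edgeR adjusted p = 1.74e-06).

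Plagl1 (also Zac1, ENSMUSG00000019817, chr10:13060504-13131694, plus strand) encodes a zinc finger transcription factor that slows the cell cycle and regulates other imprinted genes. It measured 136, 211, 165, 111 and 109 CPM in the TdTomato- libraries and 184, 153, 103, 195 and 147 CPM in the TdTomato+ libraries. TdTomato+ cells were higher in mice 2, 5 and 6 and lower in mice 3 and 4, with differences from -0.68 to 0.81 on the log2 scale. Its log2 fold change was 0.11 (s.e. 0.20, edgeR adjusted p = 0.638), and -0.07 without mouse 5, so that neither a direction nor an absence of change can be read from it.

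Ndn (Necdin, ENSMUSG00000033585, chr7:62346569-62350262, plus strand), a paternally expressed gene of the Prader-Willi region, encodes a MAGE protein that restrains cell division and supports survival of neurons. It measured 86.4, 115, 151, 105 and 104 CPM in the TdTomato- libraries and 213, 396, 352, 270.2 and 239 CPM in the TdTomato+ libraries, with all TdTomato+ libraries higher. Means were 112 ± 23.8 and 294 ± 77.2 CPM, 2.59-fold higher in TdTomato+ cells, and the log2 fold change of 1.37 (s.e. 0.08, edgeR adjusted p = 4.12e-07) was the highest of the 10. The neuron markers rose beside it, and their part in the result was not tested.

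Meg3 and Rian are maternally expressed noncoding RNAs of the Dlk1-Dio3 region on chromosome 12, transcribed one after the other on the plus strand. Meg3 (ENSMUSG00000021268, chr12:109541001-109571726, plus strand) is a nuclear RNA that interacts with Polycomb proteins, and Rian (ENSMUSG00000097451, chr12:109603940-109661716, plus strand) is the host of many small nucleolar RNAs. Meg3 measured 704, 338, 349, 284 and 278 CPM in the TdTomato- libraries and 1346, 721, 813, 894 and 930.2 CPM in the TdTomato+ libraries. Mouse 2 was highest in both populations, and its TdTomato- library came close to the lowest TdTomato+ library without reaching it. Means were 391 ± 178 and 941 ± 241 CPM, and the log2 fold change was 1.33 (s.e. 0.11, edgeR adjusted p = 5.56e-06), or 1.43 without mouse 2. Rian measured 231, 169.6, 213, 146 and 135 CPM in the TdTomato- libraries and 395, 325, 319.6, 353 and 327 CPM in the TdTomato+ libraries, again with mouse 2 highest in both and no overlap. Rian rose less, by 0.97 (log2, s.e. 0.10, edgeR adjusted p = 1.87e-05). The log2 ratio of Rian to Meg3 counts, again with 2 added to each, went from -1.06 ± 0.330 to -1.42 ± 0.232, with a negative difference in 5 of 5 mice and a mean difference of -0.36 (exact two-sided sign-flip p = 0.0625, the smallest this test can give, and 0.0625 after Benjamini-Hochberg adjustment over 2 ratios).

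H19, Igf2, Mest, Meg3 and Rian carry microRNAs in the RefSeq table, and the mature sequences of 1 microRNA gene per host are shown, since a microRNA is cut from its host's transcript. Capitals mark the seed, bases 2 to 8, and no seed was shared within a host. Mature microRNAs were not measured in these mRNA libraries, so the values above are of the host transcripts only.
miR-675-5p (H19, exon): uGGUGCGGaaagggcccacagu
miR-675-3p (H19, exon): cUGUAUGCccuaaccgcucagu
miR-483-5p (Igf2, intron): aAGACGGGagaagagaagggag
miR-483-3p (Igf2, intron): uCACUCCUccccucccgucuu
miR-335-5p (Mest, intron): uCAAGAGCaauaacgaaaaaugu
miR-335-3p (Mest, intron): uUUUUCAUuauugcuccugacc
miR-770-5p (Meg3, exon): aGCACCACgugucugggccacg
miR-770-3p (Meg3, exon): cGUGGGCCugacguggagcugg
miR-370-5p (Rian, intron): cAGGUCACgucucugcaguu
miR-370-3p (Rian, intron): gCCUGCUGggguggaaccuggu
Host transcripts of miR-675, miR-483 and miR-335 were thus lower, and those of miR-770 and miR-370 higher, in TdTomato+ cells.

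Impact (ENSMUSG00000024423, chr18:12955852-12992950, plus strand) encodes a protein that holds back GCN2, the kinase that senses amino acid shortage, and is abundant in neurons. It measured 25.1, 21.2, 21.5, 18.3 and 18.6 CPM in the TdTomato- libraries and 27.7, 24.5, 24.1, 27.0 and 26.2 CPM in the TdTomato+ libraries. TdTomato+ cells were higher in all 5 mice, but TdTomato- mouse 2 lay within the TdTomato+ range. The log2 fold change was 0.32 (s.e. 0.08, edgeR adjusted p = 0.00467), and 0.14 (adjusted p = 0.14) where libraries were scaled by their totals only.

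Read per kilobase of exon, the order of the genes differed between the populations. In TdTomato- cells Mest led at 58.4 ± 6.21 CPM per kb, followed by Grb10 at 48.1 ± 4.37, and their ranges over 5 libraries overlapped. Ndn, Meg3, H19, Peg3 and Plagl1 came next at 18.7 to 30.4 CPM per kb, each overlapping its neighbour in the order, and Rian, Impact and Igf2 were last and apart from each other. In TdTomato+ cells Ndn led at 79.5 ± 20.9 CPM per kb, with a range overlapping that of Meg3 at 52.0 ± 13.3. Plagl1 and Rian overlapped at 20.0 and 18.9 CPM per kb, as did Mest and Peg3 at 14.4 and 12.5. Impact followed, and then Grb10, at 1.63 CPM per kb, overlapped with H19 at 1.59, with Igf2 again last at 0.189. Grb10 thus went from rank 2 to rank 8 of the 10.

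Both parental classes held genes called in each direction, beside 37.9% of all genes called higher and 39.4% called lower. Of the 3 maternally expressed genes, Meg3 and Rian were higher and H19 lower in TdTomato+ cells, with a median log2 fold change of 0.97. Of the 6 paternally expressed genes, Ndn and Impact were higher, Igf2, Mest and Peg3 were lower and Plagl1 was not called, with a median of -0.26. Ranges overlapped widely, from -3.74 to 1.33 for the maternal and from -2.03 to 1.37 for the paternal class, and with 3 and 6 genes, several of them in shared imprinted regions, no test of the classes was made.

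A wider list of 51 other imprinted genes, of which 39 were in the table, also went both ways, with 19 called higher, 14 lower and 6 not called, beside 37.9% of all genes called higher and 39.4% lower. Where libraries were scaled by totals only, 14 of this list were called higher and 16 lower, so which direction held more of its genes depends on the scaling, and over all genes the share of calls that were higher went from 49.1% to 36.6%. Its median log2 fold change was 0.19, against -0.01 over all genes. Among the 12 maternally expressed genes of this list in the table, 6 were higher and 4 lower (median 0.14), and among the 23 paternally expressed genes 10 were higher and 10 lower (median 0.14). Both thresholds were passed by 2 of the 39 upward and 4 downward, near the 3.2% and 9.74% of all genes, and these 6 are named for their size. Rasgrf1, a paternally expressed Ras exchange factor of neurons, went from 7.54 ± 3.15 to 61.8 ± 24.6 CPM, a log2 fold change of 3.04 (edgeR adjusted p = 1.62e-09). Htr2a, a serotonin receptor, went from 0.830 ± 0.108 to 4.02 ± 0.935 CPM (log2 fold change 2.25, adjusted p = 1.35e-06).

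On the lower side, Peg12, a paternally expressed gene near Ndn, went from 28.4 ± 2.79 to 1.39 ± 0.358 CPM (log2 fold change -4.35, edgeR adjusted p = 1.29e-08). Asb4, a ubiquitin ligase component, fell by 3.63 on the log2 scale (adjusted p = 4.04e-08). Dlk1, a paternally expressed Notch-like ligand, went from 38.0 ± 21.2 to 4.71 ± 4.42 CPM (log2 fold change -3.18, adjusted p = 8.47e-07), with a wide spread between libraries. Peg10, a retrotransposon-derived gene, fell by 2.19 on the log2 scale, from 239 ± 37.9 CPM (adjusted p = 8.36e-09). Cdkn1c, the maternally expressed cell cycle inhibitor p57, was lower by a small amount (log2 fold change -0.42, s.e. 0.08, adjusted p = 0.00104), although another gene lies on the opposite strand over 30.7% of its exonic length. Snrpn, a splicing protein gene of the Prader-Willi region, was higher by 0.61 (log2, adjusted p = 6.56e-06), with 27.3% of its exonic length shared with genes of the same strand.

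**Figure D4:**
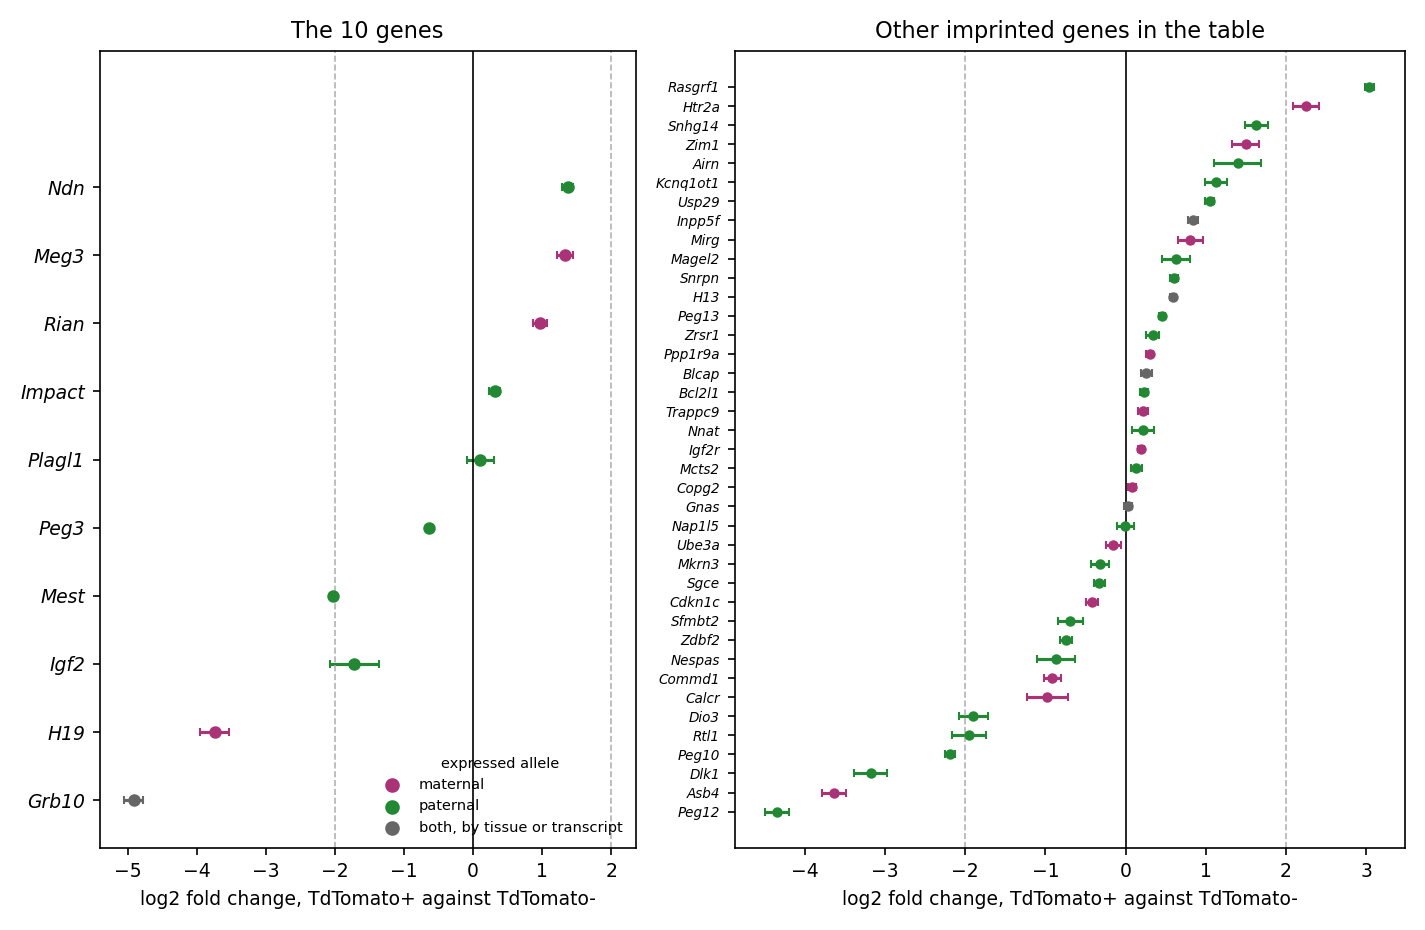
Log2 fold change of TdTomato+ against TdTomato- cells with its s.e. for the 10 genes (left) and the 39 other imprinted genes in the table (right), coloured by the parental copy they are known to be expressed from, with dashed lines at -2 and 2. Maternal and paternal genes lie on both sides of 0 in both panels. All points run from -4.91 (Grb10, in grey and in neither class) to 1.37 (Ndn) on the left. On the right they run from -4.35 (Peg12) to 3.04 (Rasgrf1).

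Imprinted genes lie in clusters, so the genes of the table that start within 500 kb of each of the 10 were read from the same fit. There were 60 such genes, H19, Igf2, Meg3 and Rian among them as neighbours of each other. Of the 60, 27 were called higher and 24 lower, and of the 47 on neither imprinted list 21 and 18. Beside 37.9% and 39.4% of all genes, these shares lie near the background. Which direction held more neighbours depended on the settings. With library totals only 23 were higher and 25 lower, and within 250 kb 12 were higher and 16 lower. Both thresholds were passed by 12 of the 60, beside 3.2% of all genes upward and 9.74% downward. Among these 12 only Gm23600 was higher, and H19 is itself among the 10 genes. Around Meg3 and Rian the genes of the 2 parental copies went opposite ways. Mirg, the third maternally expressed RNA of the region, was higher by 0.81 (log2, adjusted p = 0.00118), whereas the paternally expressed Dlk1, 88.2 kb upstream of Meg3, and Rtl1, on the minus strand between Meg3 and Rian, were lower, Rtl1 with a log2 fold change of -1.95 (adjusted p = 2.61e-05). Gm23600, a small nucleolar RNA gene at 0.272 and 1.10 CPM, lies within the bounds of Rian, on the same strand and outside its annotated exons, and was higher by 2.03 (log2, adjusted p = 1.97e-04).

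Peg3 was lower, while Usp29 and Zim1, its neighbours on the wider imprinted list described above, were higher. Usp29, also paternally expressed, starts 0.147 kb from Peg3 on the other strand, within the promoter window printed above, and went from 74.3 ± 8.38 to 153 ± 5.65 CPM, higher by 1.05 (log2, s.e. 0.06, edgeR adjusted p = 2.34e-07), while Peg3 fell by 0.64 on the same scale. Zim1, the maternally expressed gene downstream of Peg3, was higher by 1.50 (log2, adjusted p = 3.47e-05). Of 13 genes around Peg3, many of them zinc finger genes, 10 were called higher and 1 lower, beside 37.9% and 39.4% of all genes, and no test of the neighbourhood was made.

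Ndn and its paternally expressed neighbours did not move together. Of 7 genes around Ndn, 4 were called higher and 3 lower, beside 37.9% and 39.4% of all genes, and no test of the neighbourhood was made. Magel2, another MAGE gene, measured 45.1 ± 15.7 and 77.2 ± 46.7 CPM without and with the reporter, higher in 4 of 5 mice (log2 fold change 0.63, adjusted p = 0.0089). Mkrn3 fell by 0.32 (log2, adjusted p = 0.0298), and Peg12, 118 kb from Ndn, fell by 4.35 (log2) as given above. The noncoding Gm32061 beside Mkrn3 was also lower, from 1.27 CPM to 0.0700 CPM (log2 fold change -4.08, adjusted p = 2.40e-05), on 0 to 5 reads per TdTomato+ library.

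Of the table genes around Grb10, 4 of 4 were called lower, beside 39.4% of all genes, and no test of the neighbourhood was made. Ddc, which makes dopamine and serotonin from their precursors, was at 1.58 and 0.150 CPM (log2 fold change -3.46, adjusted p = 1.11e-04). Fignl1, a DNA repair ATPase, went from 28.9 to 2.45 CPM (log2 fold change -3.55, adjusted p = 6.54e-09), and Ikzf1, a zinc finger factor of blood cells, from 8.04 to 0.458 CPM (log2 fold change -4.06, adjusted p = 1.87e-06). The microglial and erythroid marker sums given above were also lower in TdTomato+ libraries, and their part in the Ikzf1 result was not tested. Near H19 and Igf2, Th, the dopamine synthesis enzyme, fell by 3.52 (log2, adjusted p = 1.59e-05) from 2.61 CPM. Cpa4, a carboxypeptidase gene 155 kb from Mest, fell by 4.80 (log2, adjusted p = 5.29e-06) from 2.82 CPM to 0 to 6 reads per library. On either side of Plagl1, Utrn, a dystrophin relative, fell by 2.48 (log2, adjusted p = 2.45e-07) and Phactr2, a phosphatase and actin regulator, fell by 2.24 (log2, adjusted p = 6.51e-08), while Plagl1 was not called.

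**Figure D5:**
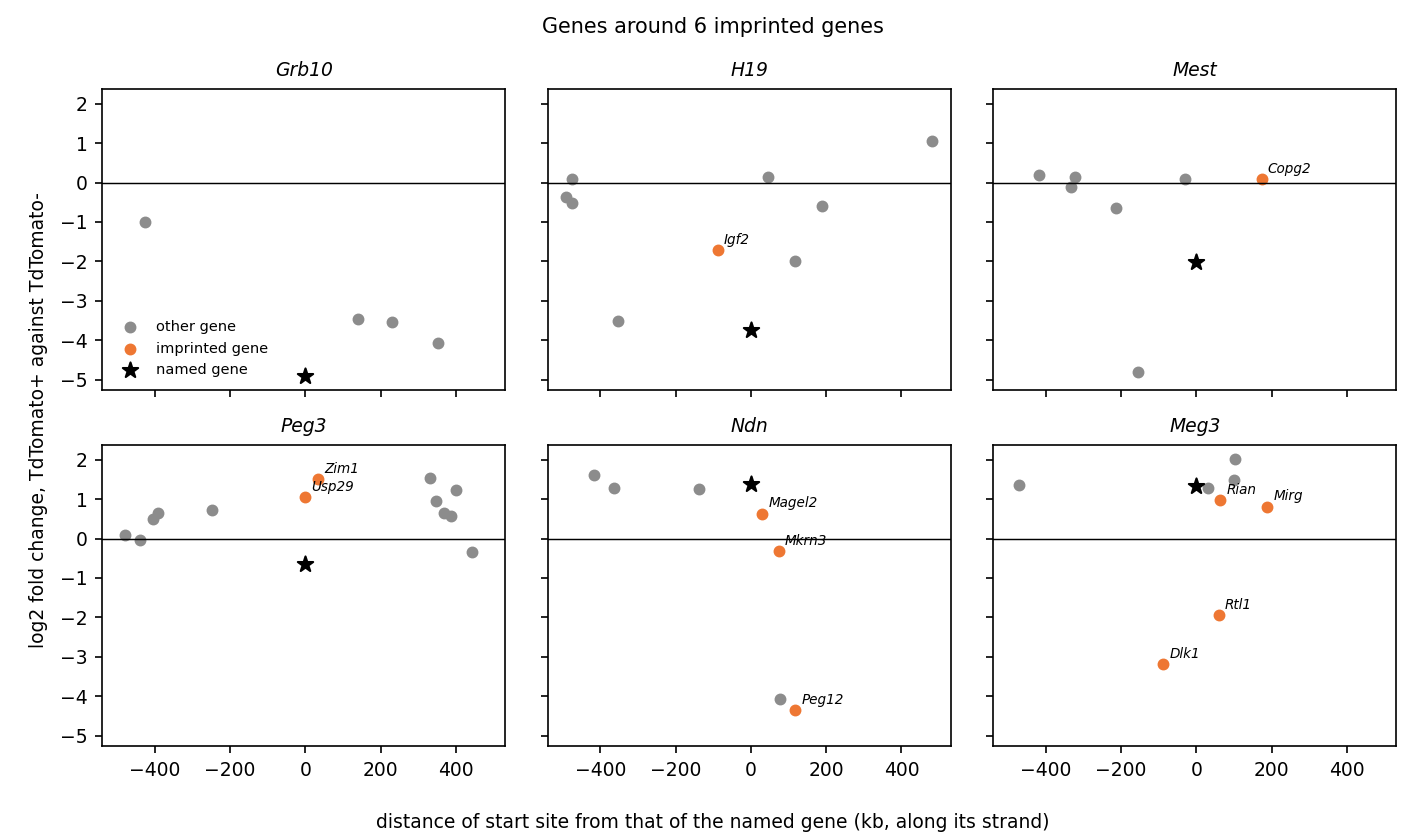
Log2 fold change of TdTomato+ against TdTomato- cells for genes within 500 kb of 6 of the genes, by distance of their start site along the strand of the named gene; stars mark the named gene, orange points other imprinted genes and grey points the rest. Grb10 lies at -4.91 and its 4 neighbours in the table are below 0, where 39.4% of all genes were called lower, Peg3 at -0.64 lies below Usp29 at 1.05 and Zim1 at 1.50, and Dlk1 at -3.18 and Rtl1 at -1.95 lie below Meg3 at 1.33 and Rian at 0.97.

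The IGF axis, through which Igf2 and Grb10 act, was read from 15 listed genes, 13 of them in the table. Of these 6 were called higher and 6 lower, beside 37.9% and 39.4% of all genes, with a median log2 fold change of -0.30, and 3 were called higher where libraries were scaled by totals. Igf1r, the main signalling receptor for IGF2, was higher, from 316 ± 9.41 to 477 ± 28.3 CPM (log2 fold change 0.59, s.e. 0.04, edgeR adjusted p = 5.07e-07). Igf2r, the maternally expressed receptor that clears IGF2, measured 118 ± 8.45 and 135 ± 13.2 CPM (log2 fold change 0.19, adjusted p = 0.00184), with overlapping populations. Scaling by totals moved the median of all genes by -0.18 (log2), nearly the size of the Igf2r change. The binding proteins went apart: Igfbp3 went from 9.58 ± 3.34 to 131 ± 47.9 CPM (log2 fold change 3.76, adjusted p = 3.26e-09) and Igfbp5 from 104 ± 6.54 to 21.4 ± 12.2 CPM (log2 fold change -2.41, adjusted p = 2.42e-05).

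Of 10 listed genes that keep imprints 8 were in the table, with 2 called higher and 6 lower in TdTomato+ cells (median log2 fold change -0.30), beside 37.9% and 39.4% of all genes. With 8 genes no direction is read for the list. Uhrf1, which recruits the maintenance methyltransferase at replication, went from 149 ± 11.6 to 6.54 ± 1.05 CPM (log2 fold change -4.52, s.e. 0.08, edgeR adjusted p = 1.20e-09), beside the drop of the progenitor markers, whose part was not tested. Zfp57, whose motif is printed above, was higher, from 173 ± 46.7 to 386 ± 55.7 CPM (log2 fold change 1.18, s.e. 0.07, adjusted p = 5.33e-07). The other gene called higher was Zfp445, a second imprint-binding zinc finger gene, by 0.50 (log2, adjusted p = 2.43e-05). Methylation itself was not measured.

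Relatives and partners of the 10 genes, 10 of 11 in the table, had 2 called higher and 5 lower (median log2 fold change -0.06), beside 37.9% and 39.4% of all genes. Grb14, an adaptor of the same family as Grb10, went the other way, from 7.55 ± 1.54 to 36.2 ± 5.53 CPM (log2 fold change 2.27, s.e. 0.13, edgeR adjusted p = 2.82e-07). It was higher in the TdTomato+ population, in which Grb10 was 30.2-fold lower, and the 2 populations did not overlap for either gene.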

How the data were processed

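RNA from sorted TdTomato+ and TdTomato- brain cells of 5 mice (10 libraries) was measured by stranded poly-A RNA-seq. The authors trimmed reads (Phred under 28 and adaptors), aligned them to GRCm38 with STAR 2.4.2a allowing at most 1 mismatch, and deposited raw counts of uniquely mapped reads per gene; genes at low CPM had been left out. The kit, sequencer and tissue differ between the labels and the methods, and the strand setting and annotation release of the counting are not given in the sources used here. The submitters' processing notes also name edgeR 3.28.0.

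The counts were fitted with edgeR 4.0.16 (R 4.3.3): TMM factors (0.929 to 1.07), filterByExpr (0 genes removed), a quasi-likelihood F-test with the mouse number as a block, and Benjamini-Hochberg adjustment over 14300 genes. A gene was called at an adjusted p of 0.05 or less, and passed both thresholds with an absolute log2 fold change of 2 or more. The s.e. is the log2 fold change over the root of F. CPM use TMM-scaled totals; log2 CPM add a prior count of 2. The sources do not say whether same-numbered libraries come from the same embryo; deviations of same-numbered libraries correlated at 0.186 to 0.316 and those of differently numbered libraries at -0.312 to 0.212. These ranges overlap; the numbers were taken to pair the libraries because the study's methods describe paired comparisons and every same-numbered correlation was positive. No pair of libraries of the same population was identical or within sampling noise (chi-square over degrees of freedom 4.46 to 32.0). Counts were simulated for 14300 genes, 200 of them changed by a log2 fold change of 2 either way, without a mouse effect. In this simulation 100% of the changed genes and 16 of the 14070 unchanged genes tested were called. Its changes were few, balanced and all of the same size, whereas 77.3% of the real genes were called. It therefore cannot test the scaling or smaller changes. The total counts set counting precision, and 3 counts equal 0.110 to 0.128 CPM.

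Lengths, overlaps and distances come from GENCODE M21 (GRCm38), which matched 14271 of 14300 genes; promoters and microRNAs come from RefSeq GRCm38.p6. Named genes were the 10 members, genes of 4 lists (other imprinted, IGF axis, imprint maintenance, relatives and partners) and neighbours within 500 kb past both thresholds, Igf1r, Igf2r, Dlk1, Cdkn1c, Magel2, Snrpn and Zfp57 whatever their values, and Grem1. Copg2, Usp29, Zim1, Rtl1, Mirg, Mkrn3 and Zfp445 were named after their values were seen. The members and all lists were chosen with earlier results of these data known. Alternatives were no mouse block, other normalizations and filters, DESeq2 1.42.0, leaving out each mouse, and a neighbour window of 250 kb.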

Additional observations from a re-analysis of the deposited data

Results flagged for a closer look

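Each gene named with a fold change, and Grem1, was checked in each population for a library far from the other 4, by its gap to the nearest library over the whole range of log2 CPM, with a limit of 0.71 for 5 libraries. Of 86 groups of libraries (43 genes), 8 passed, where chance gives about 1 in 20, or 4.3. In TdTomato- mouse 2, Meg3 (ratio 0.756) was at 9.46 log2 CPM against 8.12 to 8.45 in the other TdTomato- libraries, Zfp57 (0.845) at 7.999 against 7.17 to 7.30, Gm23600 (0.953) at -0.67 against -1.84 to -1.78, Igfbp5 (0.870) at 6.54 against 6.73 to 6.76, and Copg2 (0.740) at 6.03 against 6.19 to 6.25. In TdTomato+ mouse 2, Zfp445 (0.739) was at 8.17 log2 CPM against 7.98 to 8.03. Snrpn (0.928) was at 6.27 log2 CPM in TdTomato- mouse 4 against 5.95 to 5.98 in the others, and Mkrn3 (0.735) in the same library at 3.94 against 3.46 to 3.59. Without mouse 2, the log2 fold change of Meg3 was 1.43 in place of 1.33.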

How the results depend on the processing

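Of the 10 genes, 8 kept their direction and their call under all 12 alternatives. Plagl1, never called, turned to -0.0711 where libraries were scaled by totals only (adjusted p = 0.757) and to -0.0707 without mouse 5 (adjusted p = 0.754), and ranged from -0.0707 to 0.301 over the leave-one-out fits. Impact was no longer called with library totals only, at 0.14 (adjusted p = 0.14; range over alternatives 0.00378 to 0.14). That scaling moved the median of all genes by -0.18 (log2) and the share of calls that were higher from 49.1% to 36.6%, and left 3 IGF axis genes called higher in place of 6. A 250 kb window held 32 neighbours in place of 60, with 12 called higher in place of 27 and 16 lower in place of 24, so that the balance of directions turned. Without the replicate block, the counts of members called stayed at 4 higher and 5 lower, Grb10 was at -4.88 and Meg3 at 1.27, and no call on a member changed. Leaving out each mouse in turn gave 2 to 3 members lower past both thresholds (2 without mouse 6, through Mest), 13 to 15 other imprinted genes called lower and 11 to 13 neighbours past both; the H19 to Igf2 difference ranged from -2.28 to -1.60. Genes past both thresholds numbered 1588 to 1875 over all alternatives against 1850. Among the 10 genes depth limits Igf2 most, at 7 reads in its lowest library; the named neighbours Gm32061, Cpa4, Ddc, Th, Ikzf1, Rtl1 and Gm23600 had libraries with fewer.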
